A study of Mus musculus with 8 samples.

Results

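Clic3, Paxx and Ptgds are 3 neighbouring genes on mouse chromosome 2, and they were followed through every liver library of a study of the bile acid receptor FXR (farnesoid X receptor, encoded by Nr1h4). They were chosen by symbol, 3 of 25124 rows in the authors' expression table, because their RNA-seq values differed between GW4064 and vehicle, so those values are given as a description with no test. RNA-seq was done on livers of C57BL/6 mice, labelled WT, that had been fasted overnight and given the FXR agonist GW4064 at 30 mg/kg or vehicle for 1 h, with 2 libraries per treatment and RNA of 2 mice pooled in each. GRO-seq, which sequences RNA made by polymerases running on in isolated nuclei, had 1 library for each of 4 groups at the same dose and time, namely FXR KO with GW4064, FXR KO with vehicle, WT with GW4064 and WT with vehicle. The paper's figure legend gives n = 2 per group for GRO-seq, and how these relate to the 1 library per group is not stated. The paper describes the mutants as floxed Fxr mice with Albumin-Cre, which deletes the gene in hepatocytes and may leave it in some other liver cells, and the WT animals as floxed mice. The vehicle is DMSO in the sample titles and corn oil in the methods. Replicates are pools, so the spread between them covers pools and libraries, and every GRO-seq contrast compares one library with another and has no replicate check.

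FXR is a nuclear receptor that is activated by bile acids and by GW4064, binds DNA mostly as a partner of RXR, and switches on genes such as Nr0b2, which encodes the repressor SHP, and Abcb11, which encodes the bile salt export pump. Clic3 belongs to the chloride intracellular channels, small glutathione-S-transferase-like proteins that occur in soluble and membrane forms. Paxx encodes a paralog of XRCC4 and XLF that works in DNA double-strand break repair by non-homologous end joining, and Ptgds encodes lipocalin-type prostaglandin D synthase, a secreted lipocalin that makes prostaglandin D2 and carries small lipophilic molecules. Genes that lie next to each other can share an enhancer, and a polymerase that runs past the end of one gene can also leave RNA from the next one along its path, so order and strand matter for reading such a group.

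In mm10 coordinates the Clic3 row covered chr2:25456843-25458772 on the plus strand, the Paxx row chr2:25459488-25461094 on the minus strand and the Ptgds row chr2:25466712-25469749 on the minus strand. Clic3 and Paxx point towards each other, with 716 bases between their 3′ ends and 4251 bases between their start sites. Ptgds lies 5618 bases upstream of Paxx on the same strand, so transcription that continued past the end of Ptgds would enter Paxx and then run antisense through Clic3. On the other side Abca2, which encodes a lipid transporter, lies 8303 bases upstream of Clic3 on the same strand, so transcription past the end of Abca2 would enter Clic3. Beyond Ptgds, the lipocalin gene Lcn12 lies 21096 bases away and also points towards Ptgds. No other row of the table overlapped the 3 genes. In the GENCODE M21 annotation the coding transcripts taken for the rows had 6 exons in Clic3, 7 in Paxx and 7 in Ptgds, and exons made up 41.4%, 60.7% and 25.4% of those rows. The annotation also lists the non-coding transcripts Paxx-208 and Paxx-209, which start within Paxx, end at 25455141 beyond the Clic3 start, and cross the whole Clic3 row on the opposite strand with 0 exonic bases inside it. Whether the counts used strand is not given in the sources used here, so reads of Clic3 and of RNA antisense to it cannot be told apart.

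The start-site windows of Paxx and Ptgds are shown because both genes were higher with GW4064 and lie in tandem, so a shared sequence can be looked for there. Each holds 250 bases before and 50 after the RefSeq start on GRCm38.p6, written 5′ to 3′ along the gene. Capitals mark the motifs found on either strand, GC box GGGCGG (or CCGCCC where it lies on the other strand) and E box CACGTG. The Paxx window is chr2:25461045-25461344 and the Ptgds window chr2:25469700-25469999, both on the minus strand.
Paxx: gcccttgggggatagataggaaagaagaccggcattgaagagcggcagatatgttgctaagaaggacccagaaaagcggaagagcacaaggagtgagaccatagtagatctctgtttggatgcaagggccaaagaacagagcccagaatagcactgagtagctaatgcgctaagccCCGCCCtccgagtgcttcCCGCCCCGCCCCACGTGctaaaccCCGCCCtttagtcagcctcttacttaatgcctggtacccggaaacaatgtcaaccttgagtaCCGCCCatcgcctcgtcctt
Ptgds: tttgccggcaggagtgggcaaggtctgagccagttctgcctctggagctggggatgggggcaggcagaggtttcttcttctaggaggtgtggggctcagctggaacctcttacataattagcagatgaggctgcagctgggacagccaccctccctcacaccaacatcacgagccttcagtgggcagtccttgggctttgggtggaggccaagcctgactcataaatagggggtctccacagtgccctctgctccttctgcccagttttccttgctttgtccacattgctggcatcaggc

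The windows had GC contents of 54.3% in Paxx and 57.7% in Ptgds. The Paxx window held GC boxes at -74, -56, -51, -32 and 30 from the start, the pair at -56 and -51 overlapping, and an E box at -45, and the Ptgds window held neither. A GC box was found in 35.6% and an E box in 7.15% of 32817 windows of the same length. Neither window held the half-site AGGTCA, which is the binding unit of many nuclear receptors and occurred in 16.3% of windows, or the TATA box TATAAA, which occurred in 13.6%. FXR with RXR is best known to bind an inverted repeat with a spacer of one base, AGGTCANTGACCT, and neither window held it with up to 3 mismatches, against 11.4% of all windows. A missing match says only that these letters are absent from these windows. The windows of Abca2 and Lcn12 also had no half-site, inverted repeat or TATA box.

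The libraries held 13924468 to 14047223 reads in RNA-seq and 5069394 to 14173723 in GRO-seq, as rebuilt from the smallest steps in the RPKM values (reads per kilobase of the row, scaled to library size), and both FXR KO libraries lay at the low end of that range. Markers of hepatocytes summed to 285 and 323 RPKM with GW4064 and 310 and 312 RPKM with vehicle in RNA-seq. In GRO-seq they summed to 770 RPKM with GW4064 and 788 RPKM with vehicle in FXR KO, and to 474 and 466 RPKM in WT. None of the 7 lists of cell type markers had a member past the test by limma, with 0 to 2 members of a list at an unadjusted p under 0.05, and limma-voom called Ttr alone among them. Over all rows tested, limma called 2.13% higher and 1.15% lower. An unadjusted p under 0.05 was found in 21.2%, and limma-voom called 8.79%. With 0 to 6 members of a list tested, the lack of calls says little about cell make-up. The summed mesothelium list, 4 genes that were all under the filter on low values, was 1.34 and 2.54 RPKM with GW4064 and 0.682 and 1.02 RPKM with vehicle, and its member Lrrn4 was 0.803 and 0.846 RPKM with GW4064 and 0.07 and 0.069 RPKM with vehicle. Wt1 did not overlap between treatments either, at 0.209 and 0.299 RPKM with GW4064 and 0.063 and 0.119 RPKM with vehicle. Such a lack of overlap, with GW4064 above vehicle, was found in 26% of all rows tested. Msln, at 0.199 and 0.918 RPKM with GW4064 and 0.361 and 0.432 RPKM with vehicle, and Upk3b, at 0.133 and 0.473 RPKM with GW4064 and 0.188 and 0.405 RPKM with vehicle, overlapped. The list summed to 0.241 RPKM with GW4064 and 0.222 RPKM with vehicle in FXR KO nuclei, and to 1.17 and 0.13 RPKM in WT nuclei, where Lrrn4 made up 0.94 RPKM with GW4064. Its part in the results below was not tested. These are whole livers, in which more cells of a type and more RNA per cell cannot be told apart.

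Clic3 was low in vehicle livers and higher with GW4064, the contrast for which it was chosen. Its RNA-seq level was 24.0 and 22.6 RPKM with GW4064, against 0.967 and 0.849 RPKM with vehicle. Both GW4064 libraries stood far above both vehicle libraries, and the lowest GW4064 value was 23.3 times the highest vehicle value. The means were 23.3 ± 1.02 RPKM with GW4064 and 0.908 ± 0.0834 RPKM with vehicle (SD, n = 2 each), a ratio of 25.7, from 645 and 609 reads against 26 and 23 reads. On the log2(RPKM + 0.1) scale the difference was 4.54, rank 4 from the top of 11408 rows tested.

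Paxx had the highest vehicle level of the 3 genes and the smallest ratio. It was at 26.8 and 26.3 RPKM with GW4064, against 4.42 and 4.08 RPKM with vehicle. The replicates of each treatment lay close together, and the treatments did not overlap. The means were 26.6 ± 0.363 RPKM with GW4064 and 4.25 ± 0.245 RPKM with vehicle (SD, n = 2 each), a ratio of 6.25, and the log2 difference of 2.62 ranked 30.

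Ptgds was the lowest of the 3 genes in every RNA-seq library. It was at 2.77 and 1.70 RPKM with GW4064, against 0.189 and 0.164 RPKM with vehicle. The vehicle values rest on 8 and 7 reads and the GW4064 values on 117 and 72 reads. The means were 2.23 ± 0.758 RPKM with GW4064 and 0.176 ± 0.0177 RPKM with vehicle (SD, n = 2 each), a ratio of 12.6, and the log2 difference of 3.04 ranked 22. It passed the filter on low values, a mean of at least 0.5 RPKM, only through its GW4064 libraries. The GW4064 replicates of Ptgds differed by a factor of 1.63, with a 95% counting interval of 1.21 to 2.22, whereas those of Clic3 differed by 1.06 (0.951 to 1.19) and those of Paxx by 1.02 (0.909 to 1.14). Lcn12 showed the same order of GW4064 replicates, with a factor of 1.44 (1.04 to 2.02). These intervals are exact and, like all counting intervals here, cover counting error only.

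For scale, 243 of the 11408 rows tested were called higher with GW4064 in RNA-seq, 2.13%, and 131 were called lower, 1.15%, by limma at a Benjamini-Hochberg adjusted p under 0.05. The 3 genes entered through this contrast, so nothing is read from their place among those rows. In 26% of rows tested, both GW4064 values lay above both vehicle values.

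**Figure D1:**
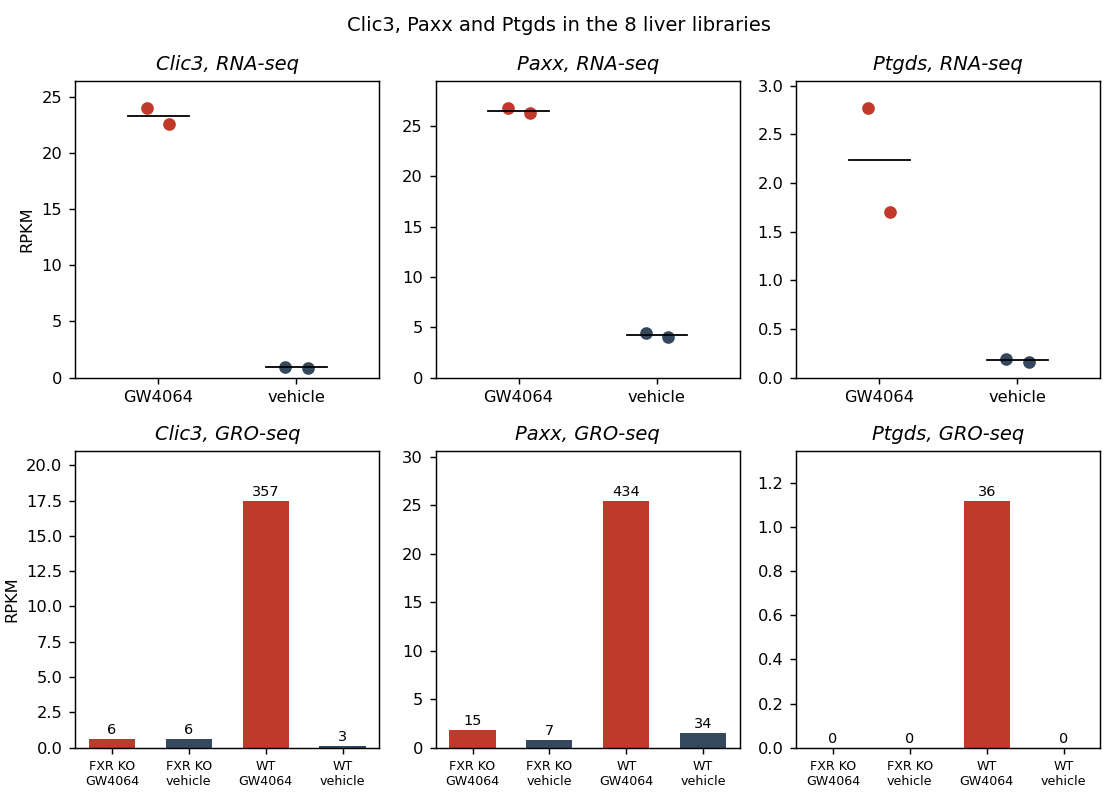
RPKM of Clic3, Paxx and Ptgds in each library on linear axes from 0. In the upper row points are RNA-seq libraries and lines are means of 2 libraries. In the lower row each bar is 1 GRO-seq library with its number of reads above it. Every GW4064 point lies above the vehicle points in RNA-seq, and in GRO-seq the WT bar with GW4064 is the tallest for each gene, at 17.5, 25.5 and 1.12 RPKM.

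In absolute terms Clic3 and Paxx gained nearly the same RNA-seq density per base of the row, introns included. Exons made up 41.4% of the Clic3 row, 60.7% of the Paxx row and 25.4% of the Ptgds row. Comparisons between these genes therefore depend on how much of each row is intron. The difference of means was 22.4 RPKM for Clic3 and 22.3 RPKM for Paxx, against 2.05 RPKM for Ptgds, 9.2% of the gain of Paxx. The level of Clic3 relative to Paxx within a library was 0.895 and 0.858 with GW4064 and 0.219 and 0.208 with vehicle. Ptgds relative to Paxx was 0.103 and 0.0644 with GW4064 and 0.0427 and 0.0402 with vehicle. Abca2, which lies upstream of Clic3, gained 1.86 RPKM over a row of 19941 bases. In reads summed over the 2 libraries of a treatment, the gains were 1205 at Clic3, 1000 at Paxx, 174 at Ptgds and 1030 at Abca2. The stretches between the genes have no rows in the table, so reads there were not measured, and read-through was not tested.

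GRO-seq gives nascent RNA and adds the receptor mutant. For Clic3, nuclei labelled FXR KO had 0.614 RPKM with GW4064 and 0.605 RPKM with vehicle, from 6 and 6 reads, and WT nuclei had 17.5 RPKM with GW4064 and 0.11 RPKM with vehicle, from 357 and 3 reads. The GW4064 to vehicle ratio was 1.01 in FXR KO (95% counting interval 0.271 to 3.79) and 159 in WT (54 to 776). With GW4064, the FXR KO level was 0.0351 of the WT level (0.0128 to 0.0772), in libraries where the hepatocyte markers summed to 770 RPKM in FXR KO and 474 RPKM in WT. The part of that difference in the genotype ratios was not tested. With vehicle, the FXR KO level was 5.51 times the WT level (1.18 to 34.1), on 6 against 3 reads.

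For Paxx, FXR KO nuclei had 1.84 RPKM with GW4064 and 0.848 RPKM with vehicle, from 15 and 7 reads, and WT nuclei had 25.5 RPKM with GW4064 and 1.49 RPKM with vehicle, from 434 and 34 reads. The GW4064 to vehicle ratio was 2.17 in FXR KO, with an interval of 0.834 to 6.3 that includes no change, and 17.1 in WT (12 to 25). With GW4064, FXR KO was at 0.0722 of WT (0.0401 to 0.12). With vehicle, FXR KO was at 0.568 of WT, and that interval of 0.212 to 1.3 includes equality.

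Ptgds had 0 reads in both FXR KO libraries and in the WT vehicle library, and 36 reads, 1.12 RPKM, in the WT library with GW4064. Set against a floor of 3 reads in the vehicle library, the WT level with GW4064 was at least 16.1-fold higher than with vehicle. Against the same floor in the FXR KO library with GW4064, the WT level was at least 5.74-fold higher. With 0 reads in both FXR KO libraries, a change with GW4064 was not detectable there at this depth.

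Ordered by GRO-seq level, Clic3 ran WT with GW4064, FXR KO with GW4064, FXR KO with vehicle and WT with vehicle, and the interval of the FXR KO pair includes no change. Paxx ran WT with GW4064, FXR KO with GW4064, WT with vehicle and FXR KO with vehicle, and the interval of the FXR KO pair includes no change. On the log2(RPKM + 0.1) scale, the WT difference was 6.39 for Clic3, rank 1 of the 9690 rows that averaged 0.5 RPKM or more in GRO-seq and held 20 reads or more in one library of the pair, and 4.01 for Paxx, rank 6. Clic3 passed this filter only through the WT library with GW4064, its other GRO-seq libraries averaging 0.443 RPKM, so its rank is a description only. Ptgds, at 3.61, fell below that filter. Of those rows 2.68% were at least 2-fold higher with GW4064 in WT, and 0.762% of 9191 rows were in FXR KO, where none of the 3 genes passed that filter. The median over the rows that passed was -0.10 in WT and -0.03 in FXR KO.

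The GRO-seq gain in WT was not as even as the RNA-seq gain, with Clic3 at 72.3% and Ptgds at 4.66% of the gain of Paxx. Within WT libraries, Clic3 relative to Paxx was 0.685 with GW4064 and 0.0736 with vehicle. Nr0b2 had 1.19 RPKM with GW4064 and 0.118 RPKM with vehicle in FXR KO, on 20 and 2 reads, a ratio of 10.1 (2.46 to 89.5), and 36.6 and 3.65 RPKM in WT, a ratio of 10 (8.56 to 11.9). Abcb11 had ratios of 1.31 in FXR KO and 12.1 in WT. Nr1h4 itself had 20.6 RPKM with GW4064 and 16.7 RPKM with vehicle in FXR KO, and 4.23 and 15.1 RPKM in WT, so FXR KO over WT was 4.88 (4.65 to 5.13) with GW4064 and 1.11 (1.07 to 1.15) with vehicle. In RNA-seq Nr1h4 fell to 3.9 and 3.72 RPKM with GW4064, against 9.09 and 9.38 RPKM with vehicle (log2 difference -1.26, adjusted p = 0.0149 by limma). Like most or all calls, this one was lost when any 1 library was left out. The log2 difference of Nr1h4 was then -1.29 to -1.22. A row over the whole gene does not check a deletion of part of it, so the genotype is taken from the label.

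**Figure D2:**
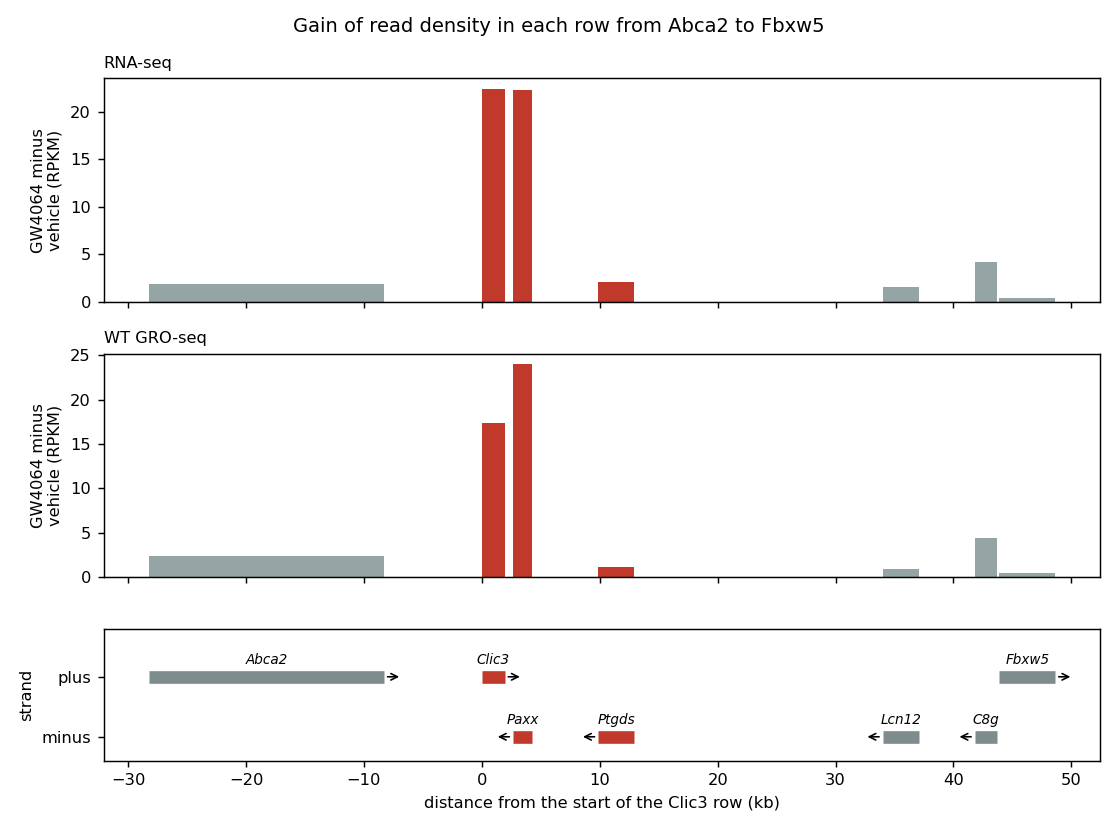
Difference in RPKM, GW4064 minus vehicle, for each row from Abca2 to Fbxw5 in RNA-seq and in WT GRO-seq, with the strand of each gene underneath and the distance from the start of the Clic3 row in kb on the horizontal axis. Bar width is the row length, and Clic3, Paxx and Ptgds are red. Clic3 and Paxx stand above their neighbours, with RNA-seq gains of 22.4 and 22.3 RPKM against 2.05 RPKM for Ptgds and 1.86 RPKM for Abca2.

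The rows around the 3 genes were taken by distance, and each has its own difference between treatments. Of 13 other rows within 100 kb of the span, 10 were tested and 1 was called higher, 10% against 2.13% of all rows, with a median log2 difference of 0.175 against -0.00285 over all rows. Both GW4064 values lay above both vehicle values in 6 of the 10, against 26% of all rows, and 5 of the 10 had an unadjusted p under 0.05, against 21.2% of all rows. Lcn12, counted in both, passed the filter on low values only through its GW4064 libraries. The called row was Abca2. It rose to 5.04 and 4.77 RPKM with GW4064, against 3.03 and 3.07 RPKM with vehicle, a log2 difference of 0.67 (SE 0.0569, adjusted p = 0.0266 by limma). Leaving out any 1 library removed most or all calls over the whole set of rows, that of Abca2 among them. The log2 difference of Abca2 then stayed at 0.63 to 0.707. Its call was also lost without a filter on low values (adjusted p = 0.0524 by limma). With a replicate block it was lost as well (adjusted p = 0.0812 by limma), as was every other call. In GRO-seq, Abca2 had 0.92 RPKM with GW4064 and 1.31 RPKM with vehicle in FXR KO, and 3.24 and 0.92 RPKM in WT.

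Lcn12, the next gene beyond Ptgds, had 2.15 and 1.49 RPKM with GW4064 and 0.398 and 0.209 RPKM with vehicle. The GW4064 values rest on 92 and 64 reads and the vehicle values on 17 and 9 reads. The groups did not overlap, with GW4064 above vehicle as in 26% of all rows tested. At a vehicle mean of 0.303 RPKM, Lcn12 passed the filter on low values only through its GW4064 libraries. Its p-values are thus a description only. The log2 difference of 2.27 (SE 0.315) had an adjusted p of 0.0567 by limma, just over the threshold. Lcn12 passed when rows under 300 bases were left out, at an adjusted p of 0.0139, and in limma-voom on rebuilt reads, at 0.0185. In GRO-seq, Lcn12 had 1 read in each FXR KO library, and 1.02 RPKM with GW4064 against 0.161 RPKM with vehicle in WT, a ratio of 6.31 (2.74 to 16.9).

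Apart from Abca2, no neighbour within 100 kb passed the limma test. C8g, which encodes the gamma chain of complement component 8 and is also a lipocalin, had a log2 difference of 0.21 (adjusted p = 0.156 by limma) and a WT GRO-seq ratio of 1.38 (1.17 to 1.62). Traf2, an adaptor of TNF receptors, had 0.26 (adjusted p = 0.166 by limma) and a WT GRO-seq ratio of 1.42 (1.22 to 1.65). Edf1, Mamdc4, Fbxw5, Uap1l1 and Entpd2 had log2 differences between -0.02 and 0.20, with adjusted p-values of 0.162 to 0.99 by limma. Uap1l1 had GRO-seq ratios of 1.62 (0.692 to 4) in FXR KO and 1.88 (1.12 to 3.21) in WT. Those of Edf1 were 0.793 (0.598 to 1.05) in FXR KO and 1.24 (1.02 to 1.49) in WT. Mir3087, a row inside Abca2, had -2.37 (adjusted p = 0.508 by limma). Within 250 kb, 27 rows were tested and 3 were called higher, 11.1%, namely Abca2, Rabl6 and Tmem141, the last pair named after their values were seen. Rabl6 had 3.95 and 3.78 RPKM with GW4064 and 2.53 and 2.67 RPKM with vehicle (log2 difference 0.55, adjusted p = 0.0375 by limma), and lies 113 kb from the span. Tmem141 had 10.1 and 10.1 RPKM with GW4064 and 3.93 and 4.96 RPKM with vehicle (log2 difference 1.18, adjusted p = 0.0378 by limma), and lies 150 kb from the span, so its difference was larger than that of Abca2. Both calls were lost when any 1 library was left out, like most or all calls. The log2 differences were then 0.514 to 0.591 for Rabl6 and 1.01 to 1.34 for Tmem141.

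**Figure D3:**
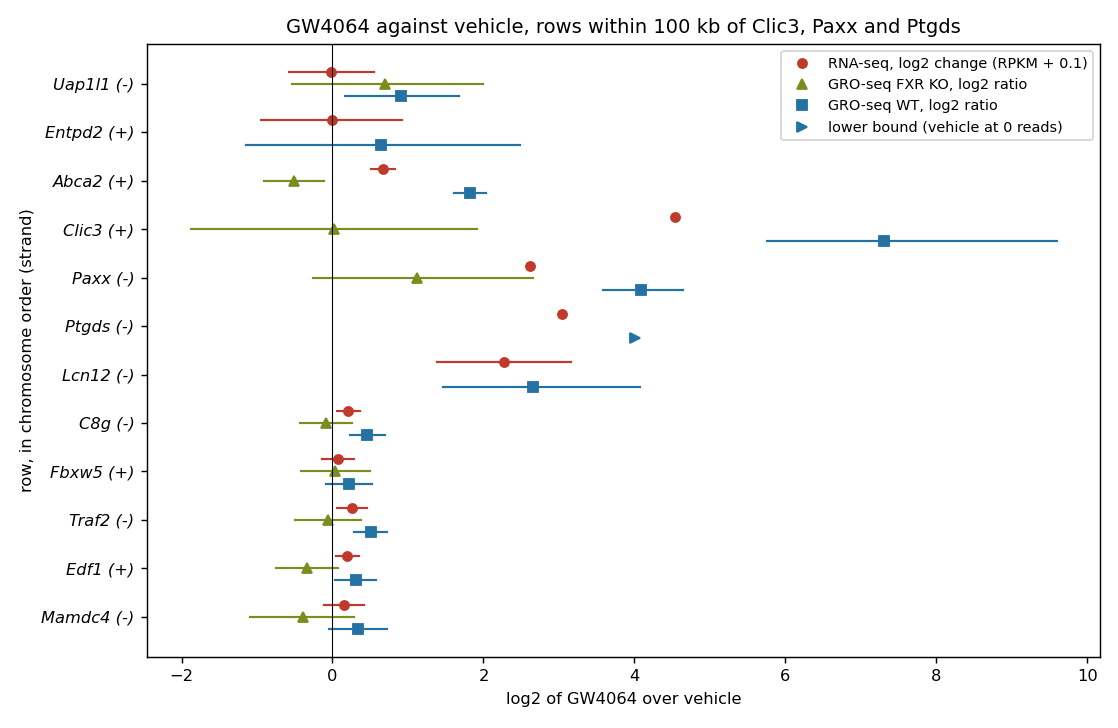
Log2 of GW4064 over vehicle on the horizontal axis for each tested row within 100 kb other than Mir3087, in chromosome order down the page. Red points are RNA-seq with 95% limma intervals, left off for Clic3, Paxx and Ptgds. Green triangles are FXR KO GRO-seq and blue squares WT GRO-seq with 95% counting intervals, the blue arrowhead is a lower bound, and ratios with too few reads are left out. The rows from Abca2 to Lcn12 are displaced to the right in RNA-seq and WT GRO-seq, from 0.67 at Abca2 to 4.54 at Clic3 in RNA-seq. Uap1l1, C8g, Traf2 and Edf1, outside that stretch, also have WT GRO-seq intervals wholly to the right of no change, with smaller ratios.

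Other close pairs in the genome give a background for a gene next to one that was called higher. Leaving out Clic3, Paxx and Ptgds, there were 101 cases of a row called higher beside an adjacent tested row within 10 kb. In 18 of these cases, 17.8%, the adjacent row was called higher too, against 2.13% of all rows tested. The adjacent rows had a median log2 difference of 0.26. A called row with a close neighbour on each side gives a case for each, and a pair with both rows called is counted from both sides. The cases are thus not independent pairs. Convergent neighbours, the arrangement of Clic3 and Paxx, had 6 of 34 cases, 17.6%. Tandem neighbours, the arrangement of Ptgds and Paxx, had 6 of 44 cases, 13.6%, and divergent neighbours 6 of 23 cases, 26.1%.

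No tested relative of the 3 genes was called higher by limma, which called 2.13% of all rows tested higher and 1.15% lower. In lists this short, 0 calls lies near that share and says little about the families. Over all rows, 21.2% had an unadjusted p under 0.05 and limma-voom called 8.79%, against which the counts below stand. Of the 4 other CLIC genes, 2 were tested and 0 called in either direction, with 0 at an unadjusted p under 0.05 and 0 by limma-voom, Clic1 with a log2 difference of 0.07 and Clic4 with 0.11, while Clic5 and Clic6 were under 0.06 RPKM in every RNA-seq library. Of 10 other end-joining genes, 7 were tested and 0 called, with 1 at an unadjusted p under 0.05, 0 called by limma-voom and a median of 0.06. Of 19 other lipocalin genes, 18 were in the table, 9 were tested and 0 were called, with 4 at an unadjusted p under 0.05 and a median of 0.34. Limma-voom called 3 of the lipocalin genes, Lcn12, Ambp and Orm1, and both Lcn12 and C8g of this list are the neighbours described above. Of 24 other genes of prostaglandin metabolism, 7 were tested, 0 were called higher and 1 lower, with 3 at an unadjusted p under 0.05. The gene called lower was Slco2a1, a prostaglandin transporter, at a mean of 1.13 RPKM with GW4064 and 1.64 RPKM with vehicle (log2 difference -0.49, SE 0.0587, adjusted p = 0.0432 by limma), and limma-voom called Hpgd as well. The limma call of Slco2a1 was lost when any 1 library was left out, like most or all calls, at log2 differences of -0.53 to -0.455.

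The rows whose profiles were most like each gene lay on other chromosomes. Over the 8 libraries, centred within each assay, Pearson's r with Clic3 was highest for Baiap2, Gsta4 and Gm16157, at 0.997, 0.993 and 0.992. With Paxx it was highest for Thrsp, Gpn2 and Qsox1, at 0.999, 0.999 and 0.997, and with Ptgds for Jup, Map3k13 and Tinagl1, at 0.996, 0.993 and 0.993. Among the 3 neighbours it was 0.941 for Clic3 and Paxx, 0.971 for Clic3 and Ptgds and 0.97 for Paxx and Ptgds. These are descriptions over libraries that share treatments and sources, and r takes no account of the size of a change, so Tinagl1, with an RNA-seq log2 difference of 0.14, matched Ptgds, with 3.04. Of the 3 rows named for Paxx, Thrsp, a lipogenic gene, was also closest in size, at 3.08 in RNA-seq, with GRO-seq log2 differences of 1.44 in FXR KO and 4.54 in WT.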

How the data were processed

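The authors mapped RNA-seq and GRO-seq reads to mm10 with STAR 2.7.3a and quantified genes with HOMER, and the deposited values are RPKM per row, with row length equal to the whole gene span, introns included, for 24932 of 25124 rows. The labels name a stranded TruSeq kit and the methods a Kapa HyperPrep kit. Library totals and reads were rebuilt from RPKM steps, and 100% of the values that could be tested were whole within 0.15 reads. RNA-seq rows with a mean of at least 0.5 RPKM were fitted as log2(RPKM + 0.1) with limma (trend=TRUE), treatment as the only term and Benjamini-Hochberg adjustment. Fold changes on that scale understate low genes. GRO-seq ratios have exact conditional binomial 95% intervals on rebuilt reads and a floor of 3 reads. Tools were limma 3.58.1 in R 4.3.3, and Python 3.11.15 with scipy 1.17.1 for intervals, matplotlib 3.10.9 for plots and pandas 2.3.3 on numpy 2.4.6 for tables.

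The 3 genes, the neighbours and the gene lists were chosen with earlier results of these data known. Named genes are the 3 genes, tested rows within 100 kb, Nr1h4, Nr0b2 and Abcb11, list members past the test, the CLIC family and the 3 rows most like each gene. The replicate numbers did not pair the RNA-seq libraries. Alternatives were other pseudocounts, filters, normalizations, variance models and windows, limma-voom, a replicate block and leaving out each library. The start-site window of Clic3 is not reported here.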

Additional observations from a re-analysis of the deposited data

Results flagged for a closer look

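Abca2, which lies upstream of Clic3 on the same strand, moved in opposite directions in the GRO-seq libraries of the 2 genotypes. The GW4064 to vehicle ratio was 0.704 in FXR KO (95% counting interval 0.534 to 0.924, 93 and 134 reads) and 3.53 in WT (3.05 to 4.08, 685 and 260 reads). With 1 library per group the difference was not tested over samples, and the intervals cover counting error only. Nr1h4, which encodes FXR, also moved in opposite directions, with a ratio of 1.24 in FXR KO (1.19 to 1.29, 5486 and 4500 reads) and 0.281 in WT (0.268 to 0.294, 2348 and 11189 reads), and this difference was likewise not tested over samples.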

How the results depend on the processing

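The count of RNA-seq rows called, 374, was 0 with a replicate block and 0 to 43 when 1 library was left out, while 2327 rows with the block, and 1958, 1770, 1748 and 1590 without GW4064 replicate 1, GW4064 replicate 2, vehicle replicate 1 and vehicle replicate 2, had an unadjusted p under 0.05 by limma. The replicate numbers gave a correlation of deviations of -0.02 across treatments, so they do not pair the libraries. The count was 1003 in limma-voom and 734 for rows of at least 300 bases, with 52% and 57.8% of calls higher, against 65%. Without a filter 55.8% were higher. The count of rows called within 100 kb, 1, was 0 without a filter, 0 with the replicate block, 0 to 1 when a library was left out (the 1 row, without vehicle replicate 1, was Mir3087 at -4.75, adjusted p = 0.0458, and not Abca2), 2 in limma-voom, 2 for rows of at least 300 bases, and 3 in a window of 250 kb. Clic3, Paxx and Ptgds kept their direction under every alternative run, at log2 differences of 3.67 to 4.67, 2.39 to 2.67 and 1.44 to 3.64 in RNA-seq, the lowest value of each with a pseudocount of 1 RPKM. In WT GRO-seq that pseudocount gave 4.06, 3.41 and 1.08. For Nr1h4, Slco2a1, Rabl6 and Tmem141 the alternatives were added after seeing the data, and all 4 kept their direction in every one run. Depth limits Ptgds most, with 7 and 8 reads in the vehicle RNA-seq libraries and 0 in 3 of the GRO-seq libraries.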
